A study of Mus musculus with 8 samples.

Results

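Acetylcholine receptors receive the spinal input to sympathetic neurons, and 8 of their genes were followed in RNA-seq of mouse sympathetic ganglia with reduced Isl1, the gene of a LIM homeodomain transcription factor. Rows were taken by gene symbol for 6 nicotinic subunits (Chrna3, Chrna4, Chrna5, Chrna7, Chrnb2 and Chrnb4) and 2 muscarinic receptors (Chrm1 and Chrm2). All 8 genes had a row among the 13506 genes tabulated at E11.5 and among the 13413 at E14.5. The list holds 8 of the 21 nicotinic and muscarinic receptor genes looked for.

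At E11.5, Isl1 CKO embryos (Wnt1-Cre;Isl1 f/f), which lose Isl1 in the neural crest lineage, were compared with Wnt1-Cre;Isl1+/+ controls. Both carried the Rosa26-tdTomato reporter, and tissue without its fluorescence was trimmed away from the dissected ganglia. At E14.5, Isl1 hypomorphic embryos (Isl1 f-neo/f-neo), in which Isl1 is lowered and not deleted, and not in one lineage only, were compared with wildtype embryos. The sample labels give these groups as Isl1-/-, Isl1 mutation and wild type, and the alleles are those of the study's methods. Each genotype had 2 libraries, each made from the ganglia of several embryos of that genotype pooled together. Expression is given in FPKM (fragments mapped to a transcript, scaled to its length and to the size of the library), which allows levels of different genes to be set side by side.

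A genotype's 2 libraries had been merged before deposit into a single FPKM for each gene, so the spread between libraries cannot be seen in these values, and they are given below without an error or a test. Read numbers are unknown too. A difference is therefore described by its size alone, as a log2 ratio of FPKM + 0.1, and is called higher or lower from 1.5-fold. The tables list a gene only where its FPKM is at least 1 in one genotype of the stage. Isl1 itself was 133 FPKM in E11.5 controls and 40.0 in the CKO (log2 ratio -1.73), and 162 in E14.5 wildtype and 83.1 in the hypomorph (-0.96), so both mutant groups went the way of their labels. RNA of blood was uneven, since globin and other erythroid genes took 11.2% of summed FPKM in the E11.5 CKO and 2.29% in its control, against 1.56% and 1.26% at E14.5. The CKO share is uncertain, because the globin gene Hbb-y was 7552 FPKM in the E11.5 control and 0 in the CKO. The other 10 erythroid genes with a row at that stage were called higher in the CKO. Rescaling without erythroid genes sets the summed FPKM of the remaining genes, mitochondrial ones also left out, equal between the groups. It multiplies the ratio of FPKM by a constant, -0.24 on the log2 scale at E11.5 and 0.03 at E14.5. The pseudocount makes the move slightly smaller for low genes. At E11.5 the constant was below 0 because the remaining sum was larger in the CKO (factor 0.849). It is therefore not a measure of the blood RNA in the CKO.

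Preganglionic neurons of the spinal cord release acetylcholine onto sympathetic neurons, where nicotinic receptors open as cation channels and give the fast excitation. Each channel is built of several subunits around a central pore; alpha3 with beta4 or beta2 makes the main ganglionic receptor, alpha5 joins such receptors as an accessory subunit, and alpha7 can form channels by itself. Muscarinic receptors are instead coupled to G proteins, with M1 acting through Gq and closing the M-type potassium channels that hold sympathetic neurons quiet, and M2 acting through Gi/o.

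Chrna5, Chrna3 and Chrnb4 lie side by side on chromosome 9 and are described together. In mm9, with the GENCODE annotation of that build, Chrna5 spans chr9:54828687-54855586 on the plus strand, Chrna3 chr9:54859150-54874366 on the minus strand and Chrnb4 chr9:54875963-54896351 on the minus strand. The whole cluster covers 67665 bases, with 1596 bases between Chrna3 and Chrnb4. Chrna5 and Chrna3 run towards each other, and their annotated 3′ ends are 3563 bases apart in mm9 but overlap by 1304 bases in the RefSeq annotation of GRCm38.p6. Fragments from that end cannot be assigned to one gene without strand, which the library preparation is not stated to keep, so both genes' values carry that uncertainty. The transcript with the longest coding sequence has 6 exons in each of the 3 genes.

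The 250 bases before each start site of the cluster are shown because the 3 genes share a locus but not a direction of change. They come from the RefSeq promoter table of GRCm38.p6, are read 5′ to 3′ on each gene's own strand and were placed on mm9 by exact match, 1 place each. Capitals mark every match, on either strand, to 6 short motifs, namely the GC box GGGCGG, the E box CAGCTG, the homeodomain-type sequences TAATTA (palindromic) with TAATGG (not palindromic), the CCAAT box and the TATA box spelt TATAAA. Palindromes such as the E box were counted once, and no matches overlapped. The first window belongs to the Chrna5 start at the gene's 5′ end (chr9:54828437-54828686, plus strand) and the second to a start further in (chr9:54829045-54829294, plus strand), where 22 of the 250 bases lie in an exon of another Chrna5 transcript. The third and the fourth lie before Chrna3 (chr9:54874370-54874619, minus strand) and Chrnb4 (chr9:54896352-54896601, minus strand).
Chrna5 first start: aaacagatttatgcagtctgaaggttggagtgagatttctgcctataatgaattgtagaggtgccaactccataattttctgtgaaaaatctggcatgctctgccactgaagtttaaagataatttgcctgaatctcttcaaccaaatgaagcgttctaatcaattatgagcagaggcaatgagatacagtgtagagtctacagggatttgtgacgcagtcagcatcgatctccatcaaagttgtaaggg
Chrna5 second start: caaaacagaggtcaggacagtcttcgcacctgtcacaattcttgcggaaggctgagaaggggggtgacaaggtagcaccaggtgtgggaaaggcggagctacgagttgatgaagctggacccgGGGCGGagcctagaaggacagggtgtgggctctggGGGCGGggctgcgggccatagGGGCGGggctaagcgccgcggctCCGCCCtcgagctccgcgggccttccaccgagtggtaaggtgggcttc
Chrna3: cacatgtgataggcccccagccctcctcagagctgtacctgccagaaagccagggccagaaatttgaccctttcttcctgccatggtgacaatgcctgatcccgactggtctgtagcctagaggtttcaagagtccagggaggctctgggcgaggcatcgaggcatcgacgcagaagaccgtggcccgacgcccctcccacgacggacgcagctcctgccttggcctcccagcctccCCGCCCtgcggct
Chrnb4: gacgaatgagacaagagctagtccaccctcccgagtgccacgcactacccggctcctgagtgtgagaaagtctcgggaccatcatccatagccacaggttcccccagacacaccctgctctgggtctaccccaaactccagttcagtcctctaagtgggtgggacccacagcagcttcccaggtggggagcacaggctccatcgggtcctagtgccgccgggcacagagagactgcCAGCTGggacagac

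The second Chrna5 window held 4 GC boxes, the Chrna3 window held 1, and the Chrnb4 window held 1 E box and no GC box. None of the 6 sequences occurred before the first Chrna5 start, whose window had a GC content of 40.0%, against 65.2% for the second start, 63.2% for Chrna3 and 61.2% for Chrnb4. Across 32851 RefSeq promoter windows of the same length, the median GC content was 52.4%, a GC box occurred in 32.7%, the E box in 13.0%, TAATTA in 4.84%, TAATGG in 6.57%, a CCAAT box in 33.8% and the TATA box in 12.4%. Promoter entries were found for 7 of the 8 genes. Outside the cluster, Chrna4 had 3 GC boxes, Chrna7 had 1, Chrnb2 had 0, and Chrm2 had 1 GC box and 1 CCAAT box. The Chrna4 window (chr2:180773883-180774132) lies inside the annotated gene. In it 128 of the 250 bases lie in Chrna4 exons, and in the Chrna7 window 43 lie in Chrna7 exons. The TATA box and both homeodomain-type sequences were in none of the 8 windows. These matches describe the letters in the windows and not sites at which a factor binds.

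Chrna3, the ligand-binding subunit of the main ganglionic receptor, was the most abundant of the 8 genes in each of the 4 groups. It stood at 48.1 FPKM in E11.5 controls, 67.5 in the E11.5 CKO, 84.2 in E14.5 wildtype ganglia and 83.3 in the E14.5 hypomorph. The CKO value was 1.40 times the control value (log2 ratio 0.49), under 1.5-fold, and 77.0% of tabulated genes had a lower ratio. At E14.5 the genotypes were within 1.01-fold of each other (log2 ratio -0.02, which becomes 0.02 after rescaling without erythroid genes). Chrna3 was more abundant than 86.8% of tabulated genes in E11.5 controls and than 93.1% in the E14.5 hypomorph.

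**Figure D1:**
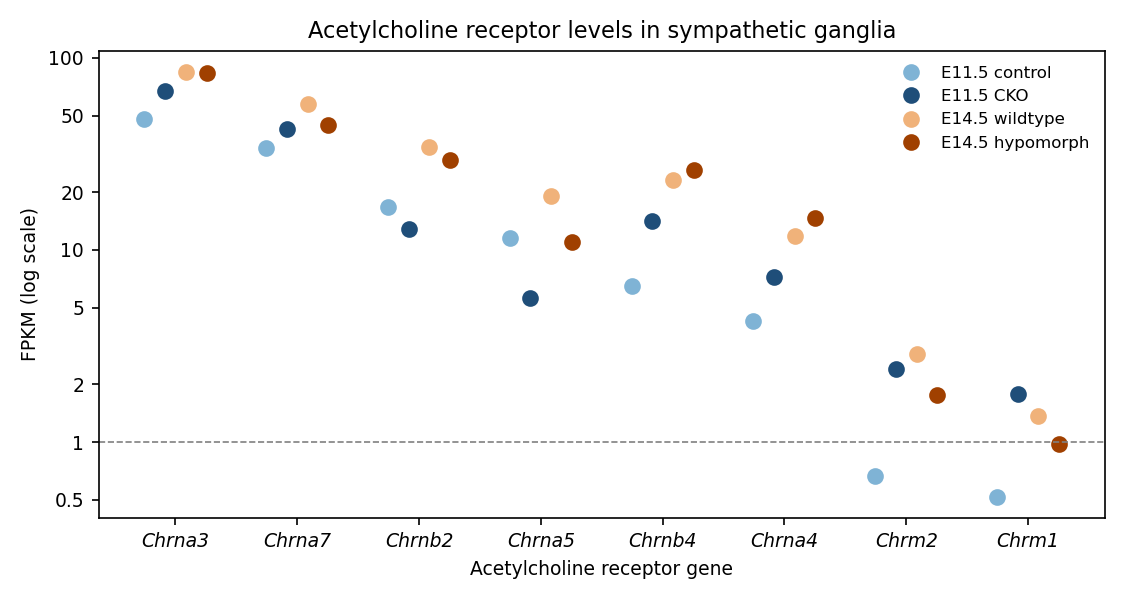
FPKM on a log scale for the 8 receptor genes, with 1 point for each of the 4 groups (the pooled value of 2 libraries, so no error bar); the dashed line marks an FPKM of 1. Chrna3 and Chrna7 lead in all 4 groups, Chrna5 is lower in both mutants than in their controls, and Chrm1 and Chrm2 lie below 3 FPKM throughout.

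Chrna5, the accessory subunit, was the only one of the 8 genes called lower at both stages. Its FPKM was 11.6 in E11.5 controls and 5.64 in the CKO, and 19.1 in E14.5 wildtype ganglia and 10.9 in the hypomorph. That is 2.04-fold lower at E11.5 (log2 ratio -1.03) and 1.74-fold lower at E14.5 (-0.80). In a bulk sample such as this, fewer cells expressing a gene and less RNA in each of them cannot be told apart. Among all tabulated genes 4.55% had a lower ratio at E11.5 and 1.18% at E14.5.

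Chrnb4, the beta subunit that pairs with alpha3, stood on the other side. It was 6.47 FPKM in E11.5 controls and 14.2 in the CKO, 2.17-fold higher (log2 ratio 1.12), and 93.0% of genes had a lower ratio. At E14.5 it was 23.1 FPKM in wildtype and 25.9 in the hypomorph, a ratio of 1.12 (log2 0.16) that is far under 1.5-fold. The E11.5 CKO thus held more Chrnb4 than its control but less than either group at E14.5.

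Within the cluster the proportions of the transcripts shifted with Chrna5. For each FPKM of Chrna5 there were 4.15 of Chrna3 in E11.5 controls and 12.0 in the CKO, and 4.42 in E14.5 wildtype and 7.63 in the hypomorph. Chrnb4 was 0.558 times Chrna5 in E11.5 controls and 2.51 times Chrna5 in the CKO, then 1.21 times in E14.5 wildtype and 2.37 times in the hypomorph. Being ratios of 2 genes in the same group, these values are free of any scaling between groups. The 2 stages differ in the Isl1 allele as well as in age, so whether the shift differs between them was not tested.

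The genes that flank the cluster were mostly near 1-fold. Towards the Chrna5 side lie Psma4, a proteasome subunit (195 FPKM in E11.5 controls and 205 in the CKO, log2 ratio 0.08), AY074887 (log2 ratio -0.21), Hykk (0.29) and Ireb2, an iron regulatory protein (53.5 and 41.5 FPKM, -0.36). At E14.5 the log2 ratios of these 4 genes lay between -0.01 and 0.11. On the Chrnb4 side, Ube2q2, Fbxo22 and Etfa had log2 ratios of -0.33, 0.06 and 0.13 at E11.5 and of 0.03, -0.07 and -0.02 at E14.5. Crabp1, a retinoic acid binding protein whose gene ends 207769 bases from the cluster's edge, was the one flanking gene called at either stage, at 386 and 664 FPKM at E11.5 (log2 ratio 0.78) and 64.6 and 103 at E14.5 (0.67). Nrg4 and AI118078 had a row at E14.5 only, with log2 ratios of -0.04 and -0.28. Of the list of neighbours drawn up for this work, Adamts7 and Wdr61 were not among the nearest coding genes taken on each side in mm9. They had log2 ratios of 0.30 and 0.03 at E11.5 and of 0.04 and 0.03 at E14.5.

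**Figure D2:**
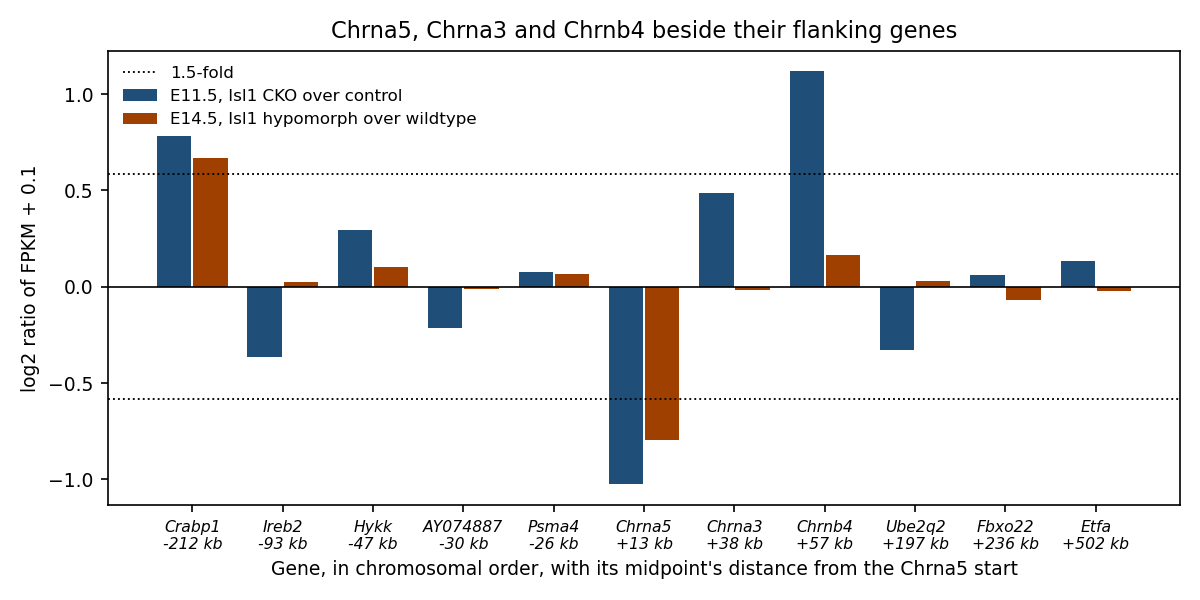
log2 ratios of FPKM + 0.1, mutant over control, for Chrna5, Chrna3, Chrnb4 and the flanking coding genes with a row at both stages, in chromosomal order with each gene's midpoint relative to the Chrna5 start; dotted lines mark 1.5-fold. Chrna5 points down at both stages (-1.03 and -0.80), beside Chrna3 (0.49 and -0.02) and Chrnb4 (1.12 and 0.16), and Crabp1 is the one flanking gene past 1.5-fold.

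Chrna7, on chromosome 7 (chr7:70243578-70357455, minus strand), encodes the subunit of the alpha7 channel and was the runner-up to Chrna3 in each group. Its FPKM was 34.0 in E11.5 controls and 42.6 in the CKO, and 57.7 in E14.5 wildtype and 44.8 in the hypomorph. The ratio was above 1 at E11.5 (log2 0.33) and below 1 at E14.5 (-0.36), both under 1.5-fold. These are different places among all genes, since 68.9% of genes had a lower ratio at E11.5 and 5.03% at E14.5. After rescaling without erythroid genes the log2 ratios of Chrna7 were 0.09 at E11.5 and -0.33 at E14.5.

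Chrna4 (chr2:180753085-180778251, minus strand) and Chrnb2 (chr3:89557370-89568554, minus strand) encode the alpha4 and beta2 subunits, which together make the receptor best known from the brain. Chrna4 was 4.28 FPKM in E11.5 controls, 7.24 in the CKO, 11.8 in E14.5 wildtype and 14.6 in the hypomorph. It was higher in both mutants, 1.68-fold at E11.5 (log2 ratio 0.74) and 1.24-fold at E14.5 (0.31), of which the first is a call. Chrnb2, which also pairs with alpha3, was 16.7 FPKM in E11.5 controls and 12.8 in the CKO, and 34.3 in E14.5 wildtype and 29.3 in the hypomorph. It was lower in both mutants without reaching 1.5-fold, with log2 ratios of -0.39 and -0.23. After rescaling without erythroid genes Chrnb2 does pass 1.5-fold at E11.5 and Chrna4 does not, so the calls at that stage go from 4 higher and 1 lower to 3 higher and 2 lower.

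The 2 beta subunits were therefore placed differently in the CKO than in the other groups. Chrnb2 was 2.59 times Chrnb4 in E11.5 controls, 1.48 times in E14.5 wildtype and 1.13 times in the hypomorph, but 0.901 times in the E11.5 CKO. Below Chrna3 and Chrna7, the order in E11.5 controls was Chrnb2, Chrna5, Chrnb4, Chrna4. In the CKO it became Chrnb4, Chrnb2, Chrna4, Chrna5. In E14.5 wildtype it was Chrnb2, Chrnb4, Chrna5, Chrna4, and in the hypomorph the last 2 changed places. Chrm2 and then Chrm1 closed the order in each group. With no spread between libraries, neighbours in these orders cannot be called different.

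Summed over the 6 nicotinic subunits, FPKM was 121 in E11.5 controls, 149.9 in the CKO, 230.2 in E14.5 wildtype and 208.9 in the hypomorph. Chrna3 made up 39.7%, 45.0%, 36.6% and 39.9% of these sums and Chrna7 28.1%, 28.4%, 25.1% and 21.5%. Chrna5 made up 9.57% in E11.5 controls and 3.76% in the CKO, and 8.28% and 5.23% in the E14.5 groups. The share of Chrnb4 was 5.34% in E11.5 controls, 9.45% in the CKO, 10.1% in E14.5 wildtype and 12.4% in the hypomorph. Chrnb2 made up 13.8% in E11.5 controls and 8.52% in the CKO and stood at 14.9% and 14.0% at E14.5, and Chrna4 was between 3.53% and 6.99%. Between the genotypes, the shares of Chrna5, Chrnb2, Chrnb4 and Chrna3 were further apart at E11.5 than at E14.5 and those of Chrna7 and Chrna4 were further apart at E14.5, in values that have no error and with the difference between stages not tested. These are shares of RNA and say nothing of the assembled channels.

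**Figure D3:**
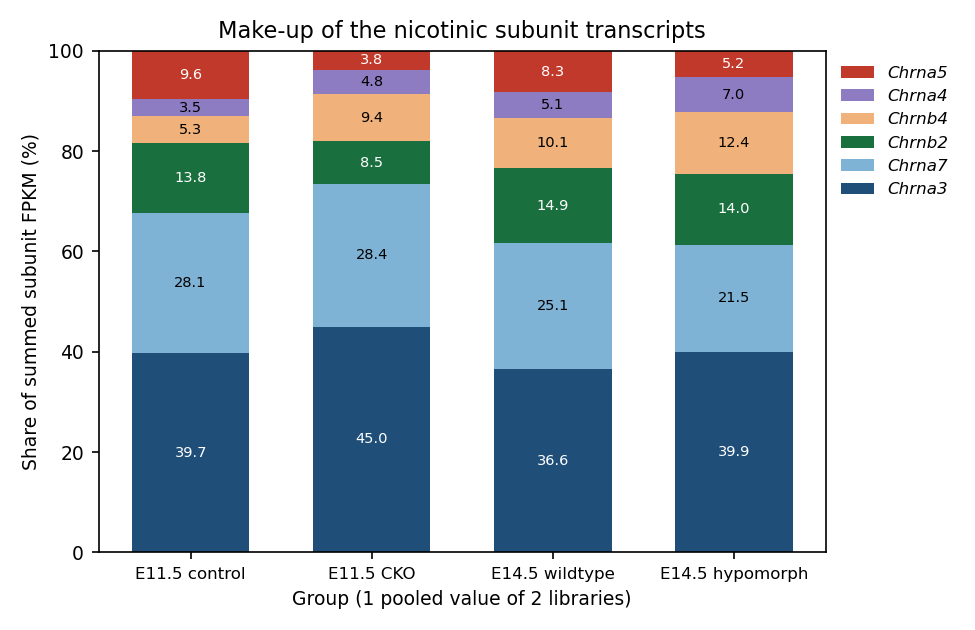
Share of the summed FPKM of the 6 nicotinic subunits, in percent, in each of the 4 groups (pooled values of 2 libraries, no error bars). Chrna5 takes 9.57% in E11.5 controls and 3.76% in the CKO, and 8.28% and 5.23% in E14.5 wildtype and hypomorph.

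The muscarinic receptors were close to the tables' lower limit. Chrm1 (chr19:8738495-8758077, plus strand) was 0.520 FPKM in E11.5 controls and 1.77 in the CKO, and 1.36 in E14.5 wildtype and 0.982 in the hypomorph. Chrm2 (chr6:36338084-36478414, plus strand) was 0.663, 2.41, 2.86 and 1.75 FPKM in the same order. Both log2 ratios were well above 0 at E11.5 (1.59 and 1.72) and below 0 at E14.5 (-0.44 and -0.68), where Chrm2 was called lower, 1.60-fold. That call is lost with a pseudocount of 1 (log2 ratio -0.49).

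The E11.5 ratios of Chrm1 and Chrm2 have to be read with the row limit. With controls under 1 FPKM, each gene had a row only because the CKO reached 1, so no log2 ratio under 0.83 for Chrm1 and 0.53 for Chrm2 could have been listed. Among the 738 genes under 1 FPKM in E11.5 controls the median log2 ratio was 1.25, and 62.3% of those genes had a lower ratio than Chrm1 and 66.5% a lower ratio than Chrm2. Chrm1 at E14.5 is the mirror case, with a row through the wildtype only. The annotation also places a 7SK RNA on the opposite strand within Chrm1, and the opposite-strand RNA 9330158H04Rik within Chrm2. Reads of these 2 RNAs cannot be told apart from the receptors' without strand. Mir490 lies within Chrm2 on the same strand, so strand would not separate its reads.

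Markers of heart muscle, a tissue in which Chrm2 is well known, were higher in the E11.5 CKO as well. Of 7 heart muscle markers, 6 had a row and 5 were called higher, with a summed FPKM of 94.9 against 37.2 in controls. Myl7, an atrial myosin light chain, was 2.36 FPKM in controls and 25.4 in the CKO, and the atrial hormone gene Nppa was 0.0765 and 12.0, while Nkx2-5 had no row. Nppa and Myh6 were under 1 FPKM in controls, so they too had a row through the CKO alone and a ratio that had to be above 1. Their part in the Chrm2 value was not tested. At E14.5 the sum was 56.8 in wildtype and 52.1 in the hypomorph.

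**Figure D4:**
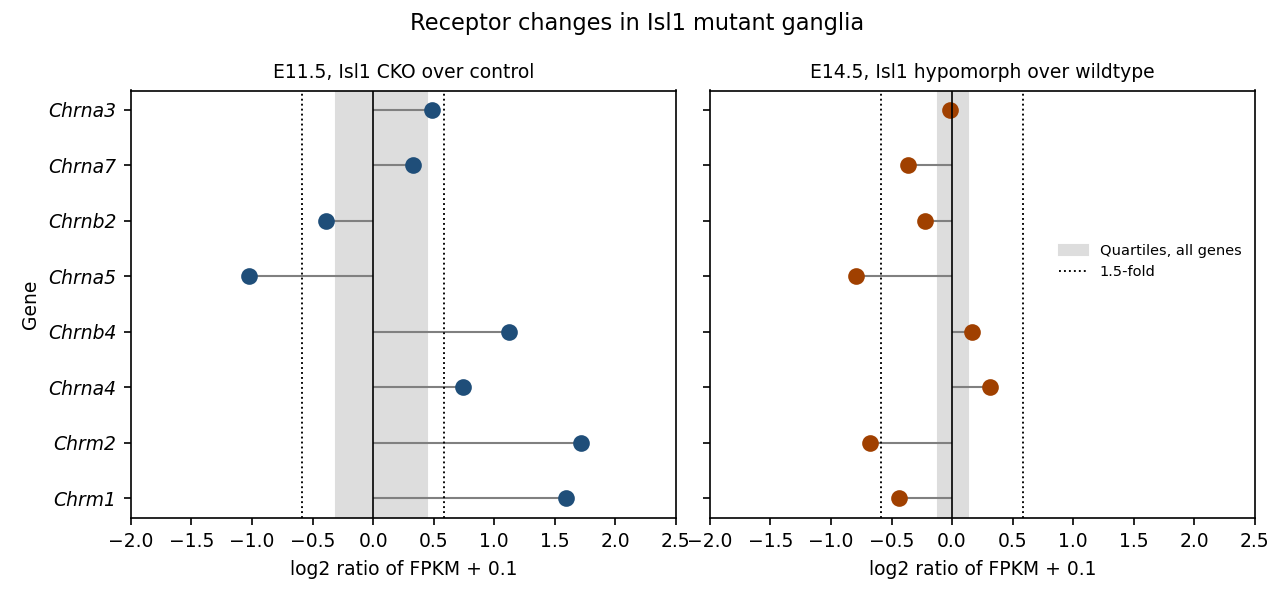
log2 ratios of FPKM + 0.1 for the 8 receptor genes at E11.5 (CKO over control) and E14.5 (hypomorph over wildtype); the grey band runs from the lower to the upper quartile of all tabulated genes, -0.31 to 0.45 at E11.5 and -0.11 to 0.13 at E14.5, and dotted lines mark 1.5-fold. Chrna5 is the one gene left of the dotted line in both panels; Chrm1 and Chrm2 are right of it at E11.5, where their control values are under 1 FPKM, and left of 0 at E14.5.

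Counted over the 8 genes, 1 was lower at E11.5 (Chrna5) and 4 were higher (Chrna4, Chrnb4, Chrm1 and Chrm2), with a median log2 ratio of 0.62 against 0.05 over all genes. Of all tabulated genes, 12.9% were lower and 18.9% were higher by the same rule at that stage. Genes under 3 FPKM in both groups, the class to which Chrm1 and Chrm2 belong, were lower in 12.4% and higher in 35.1%. Since these 2 genes could only be listed with a ratio above 1, the count of 4 is no support for a direction, and among the 6 nicotinic genes it is 2. The median of 0.62 includes them too and is no support for a direction either. The 6 nicotinic log2 ratios ran from -1.03 (Chrna5) to 1.12 (Chrnb4).

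At E14.5, 2 of the 8 genes were lower (Chrna5 and Chrm2) and 0 were higher, with a median log2 ratio of -0.29 against 0.003 over all genes. That median includes Chrm1, which at this stage could only be listed with a ratio below 1, so it is no support for a direction. By the same rule 2.12% of all genes were lower and 2.89% higher, and among genes under 3 FPKM in both groups 4.01% were lower and 6.69% higher. The class of low genes was picked with the values in view. Calls were thus several times rarer at E14.5 than at E11.5 for the table as a whole, and Chrna5 was one of the few at the later stage.

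From E11.5 control to E14.5 wildtype ganglia each of the 8 genes was higher, by 1.5-fold or more in 8 of 8, with a median log2 ratio of 1.13 against 0.24 over the 12727 genes common to the tables. Of those genes, 29.7% were higher and 12.7% lower by the same rule. Chrm1 and Chrm2, under 1 FPKM in E11.5 controls, needed only 1 FPKM at E14.5 to be kept. Chrnb4 was 3.54-fold higher (log2 ratio 1.82) and Chrna4 2.71-fold (1.44), ahead of Chrnb2 at 2.04-fold (1.03). Chrna3 (1.75-fold, 0.81), Chrna7 (1.70-fold, 0.76) and Chrna5 (1.64-fold, 0.71) were closest to the threshold, and centring on the median of all genes leaves 5 of 8 past it. By the study's methods the E11.5 controls carried Wnt1-Cre and the reporter, for the E14.5 wildtype embryos neither is named, and the tables were made separately, so stage cannot be told apart from these. Pan-neuronal markers had a median log2 ratio of 0.93 in the same comparison and sympathetic neuron markers one of 0.67. Chrna3, Chrna7 and Chrna5 were thus under the pan-neuronal median, and Chrnb4 was 0.89 log2 units over it.

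The receptors were also set beside neuronal markers. Of 12 pan-neuronal markers, 5 were lower and 0 higher in the E11.5 CKO, with a median log2 ratio of -0.47. Uchl1, a neuronal ubiquitin hydrolase, was 594 FPKM in controls and 426 in the CKO, and the neurofilament gene Nefm was 724 and 253. Of 9 sympathetic neuron markers, 3 were lower (median -0.34); Dbh, the enzyme that makes noradrenaline, was 543 and 594 FPKM and Gata3 79.1 and 32.4. Relative to the pan-neuronal median, Chrna3 was 0.96 log2 units higher and Chrnb4 1.59 higher, Chrnb2 was level (0.08), and Chrna5 was still 0.55 lower. At E14.5 the same difference was 0.21 for Chrna3, 0.39 for Chrnb4 and -0.57 for Chrna5, and Chrnb2 was level with the median. The pan-neuronal log2 ratios themselves ran from -1.52 to 0.22 at E11.5 and from -0.80 to 0.50 at E14.5. Chrna5, at -1.03 and -0.80, lay within that range at E11.5 and at its lower end at E14.5. Its distance from the median was under 1.5-fold at both stages.

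Markers of other cell types that the dissection could hold were counted as well. At E11.5 all 8 neural crest and glial markers were higher (median log2 ratio 1.17, summed FPKM 266 in controls and 591 in the CKO), for example Fabp7 at 90.9 and 208 FPKM. Of 8 mesenchymal and smooth muscle markers 5 were higher (median 0.73), and of 7 sensory neuron markers 4 had a row and 3 were higher, with summed FPKM of 6.13 and 11.0. Of the sensory markers, Pou4f1 and Prdm12 were under 1 FPKM in controls and had a row through the CKO alone. The same holds for the smooth muscle markers Cnn1, one of the 5 called, and Myh11, which was not called. The ratios of these genes had to be above 1. The spinal motor neuron markers Mnx1, Lhx3 and Olig2 had no row at either stage. At E14.5 none of the 8 crest and glial markers was called (median 0.12). The part of these cells in the higher Chrna4, Chrnb4, Chrm1 and Chrm2 values was not tested.

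Other receptor genes were few. The neuronal subunit genes Chrna2, Chrna6, Chrna9, Chrna10 and Chrnb3, the muscarinic receptor genes Chrm3, Chrm4 and Chrm5, and the muscle subunit gene Chrne had no row at either stage, and are given as below the tables' limit of 1 FPKM. Muscle-type subunits were present at low levels. Chrna1 was 1.70, 2.59, 1.67 and 1.71 FPKM from E11.5 control to E14.5 hypomorph, Chrnb1 was 2.02, 2.31, 3.75 and 2.97, and Chrng, the embryonic subunit, was 1.91, 2.94, 4.03 and 3.38. Chrnd had a row at E14.5 only, at 1.22 and 1.34. Chrng at E11.5 was the single muscle-type call (log2 ratio 0.59), in a list whose median was 0.58. Skeletal muscle markers stood above 0 in 9 of 9 at E11.5 (median 0.70, summed FPKM 240 and 368) and below 0 in 9 of 9 at E14.5 (median -0.16, 501 and 442). Mylpf, a muscle myosin light chain, was 60.9 and 83.7 FPKM at E11.5, and Ckm was under 1 FPKM in controls, with a row through the CKO alone. Their part in the muscle-type values was not tested.

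Proteins that fold, carry or modulate nicotinic receptors were listed beside them. Of 16 such genes 11 had a row at E11.5, where 2 were lower and 1 higher (median log2 ratio 0.15). Ric3, a chaperone of alpha7 assembly, was 8.63 FPKM in controls and 4.88 in the CKO (log2 ratio -0.81), and Lypd1, a toxin-like modulator, was 43.5 and 25.2 (-0.79). Ly6h, another of the toxin-like family, was 4.32 and 9.83 (1.17). At E14.5, 0 of 12 genes were called (median -0.03); Ric3 was 11.9 and 11.5 FPKM, Rapsn, which clusters receptors in muscle, was 2.86 and 2.08 (-0.45), and Lypd6 was 1.07 and 1.33 (0.29). The most abundant of the list by mean FPKM was Ywhah, a 14-3-3 protein, which was 220, 262, 130.4 and 126 FPKM over the 4 groups, and Agrn, which organises synapses, was 48.0, 42.9, 137 and 108.

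Downstream of the M1 type of receptor, genes of the Gq pathway and the M-current were counted in the same way. All 10 genes had a row at E11.5, and 4 were lower and 0 higher (median log2 ratio -0.40, beside -0.47 for the pan-neuronal markers). Plcb4, a phospholipase C, was 68.1 FPKM in controls and 7.52 in the CKO (log2 ratio -3.16). The M-channel gene Kcnq3 was 2.14 and 0.200 FPKM (-2.90), and Itpr1, the IP3 receptor, was 4.94 and 2.84 (-0.78). Kcnq3, one of the 4 called lower, was under 1 FPKM in the CKO. It had a row through the control alone, and its ratio had to be below 1. Gnaq, the Gq alpha subunit, was 64.0 and 47.2 FPKM (-0.44), and Plcb3 was the one gene above 0 (0.09). At E14.5, 0 of the 10 genes were called, with Plcb4 at 45.5 and 51.7 FPKM (0.18) and Plcb1 at 2.21 and 2.88 (0.37).

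The Gi/o side, on which M2 acts, was flatter at E11.5 but not at E14.5. Of 11 genes 7 had a row at E11.5 and 0 were called, with log2 ratios from -0.39 for Adrbk1, a receptor kinase, to 0.44 for Gnai2 (median 0.08). At E14.5, 1 of 8 genes was lower and 1 higher (median -0.04), against 0 of 10 called on the Gq side. Rgs4, which speeds the shut-off of Gi/o and Gq proteins, was 306 FPKM in E14.5 wildtype and 188 in the hypomorph (-0.71). At E11.5 it was 153 and 191 FPKM (0.32). Kcnj6, a potassium channel opened by M2-type receptors, was 0.472 and 1.09 FPKM at E14.5 (1.06) with a row through the hypomorph alone, and Kcnj3, Kcnj5 and Kcnj9 had no row. Gnb1, the G protein beta subunit and the most abundant of the list, was between 230.1 and 362 FPKM in the 4 groups.

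On the side of the transmitter, 3 of the 6 genes with a row for making, storing and breaking down acetylcholine were higher at E11.5, namely the choline transporter Slc5a7 (2.64 and 14.5 FPKM, log2 ratio 2.41), Ache (8.83 and 30.0, 1.75) and Bche (9.56 and 18.7, 0.96), and 0 of 6 were called at E14.5. Chat, the synthesising enzyme, was 1.83 and 1.34 FPKM at E11.5 and 1.64 and 1.41 at E14.5, and Slc18a3, the vesicular transporter, was 33.3 and 47.6, then 32.0 and 25.5.

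**Figure D5:**
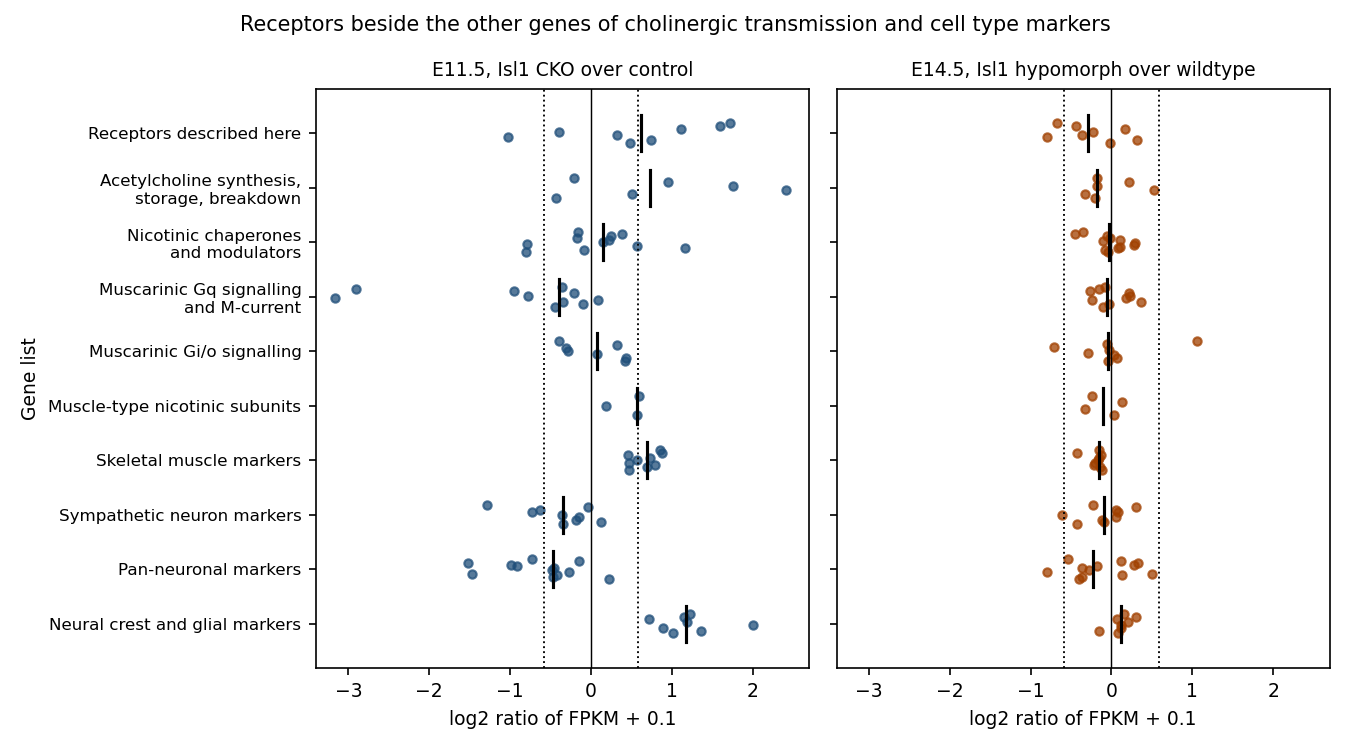
log2 ratios of FPKM + 0.1 for the 8 receptors and for 9 gene lists at E11.5 (left, CKO over control) and E14.5 (right, hypomorph over wildtype); each point is 1 gene with a row, black bars are list medians and dotted lines mark 1.5-fold. At E11.5 the receptors spread from -1.03 to 1.72, with the pan-neuronal median at -0.47 and the crest and glial median at 1.17, and at E14.5 the list medians lie between -0.29 and 0.12.

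The genes with the most similar course over the 4 groups were looked up for the 6 nicotinic genes, among 9749 genes with a mean FPKM of 5 or more, as the distance between log2 values after each gene was centred on its own mean. Chrnb2 was closest to Chkb (distance 0.01 log2 units) and Mnt (0.02), Chrna7 to Tpgs1 (0.04) and Tmem208 (0.08), and Chrna3 to Ppp1r9b (0.04) and Ppap2a (0.04). Each of these pairs ran almost in parallel over the 4 groups. Chrna4 was closest to Asic4 (0.10) and Dsp (0.14) and Chrnb4 to Caly (0.13) and Col6a1 (0.13). Chrna5 had the most distant neighbours, B3galt1 (0.23) and Klhl34 (0.24). Klhl34 was 7.40, 4.52, 13.6 and 7.39 FPKM, and B3galt1 was 5.34, 2.88, 7.85 and 5.11. With 4 points per gene these distances are descriptions and carry no test.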

How the data were processed

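RNA-seq of dissected mouse sympathetic ganglia was analysed from 2 tables, 1 per stage, with 2 libraries for each of 4 genotype groups (8 libraries). From poly(A) RNA, the authors computed FPKM with TopHat and cuffdiff, and deposited a single value for each gene and genotype over both libraries. The study's methods name mm9, whereas the submitters' processing notes name dm3, TopHat 1.3.1 and Cuffdiff 1.3.0; the gene symbols are mouse symbols. The tables also hold the authors' own log2 fold changes and p-values, which were not used. Genes are listed only where the larger FPKM of the stage is at least 1. Depth is unknown and the pooled FPKM hide the spread between libraries, so no interval, error or test was computed here.

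Ratios were computed as log2(FPKM + 0.1), which understates the change of low genes, and were tested on simulated data. Genes named are the 8 receptors, every other receptor gene with a row, the 2 most abundant genes and the steepest fall and rise per stage of the other lists (for markers, a selection of these), and the 2 nearest genes in pattern; Itpr1, Kcnq3, Lypd1 and the flanking genes were added after values were seen, and some genes this rule takes are not reported here. Members and lists were chosen with earlier results of these data known. Alternatives were pseudocounts of 1 and 0.01, centring, rescaling without erythroid genes, thresholds of 1.2-fold and 2-fold, and FPKM filters of 1 and 5. Shares were recomputed over other sets of nicotinic subunits. Positions came from GENCODE for mm9 and promoters from RefSeq. Python 3.11.15, numpy 2.4.6, pandas 2.3.3 and matplotlib 3.10.9 were used.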

Additional observations from a re-analysis of the deposited data

Results flagged for a closer look

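For 3 receptor genes the mutant stood above its control at one stage and below it at the other, by at least 1.2-fold each time. The E11.5 log2 ratio exceeded the E14.5 one by 0.69 for Chrna7, by 2.03 for Chrm1 and by 2.40 for Chrm2. These differences were not tested, because the tables give 1 pooled value per genotype, and the stages also differ in the Isl1 allele. After rescaling without erythroid genes the E11.5 log2 ratio of Chrna7 was 0.09, under 1.2-fold, so Chrna7 would not be flagged. Chrm1 and Chrm2 were under 1 FPKM in E11.5 controls, so at that stage they could be listed only with a ratio above 1. Chrm1 was also under 1 FPKM in the hypomorph, so at E14.5 it could be listed only with a ratio below 1. The opposite directions of Chrm1 were thus fixed by the row limit, as was the E11.5 direction of Chrm2.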

How the results depend on the processing

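Of 192 recomputed values, 177 stayed close to the value reported, 140 of 144 among single-receptor ratios and shares, and 0 called values reversed. These counts say little. The shares could not move, since all 6 subunits had at least 1 FPKM in every group and no other neuronal subunit had a row. Centring and rescaling shift log2 ratios by at most 0.24, under the 0.58 counted as a move. Among single-receptor values only those with another pseudocount could move. A pseudocount of 1 lowered the E11.5 log2 ratios of Chrm1 and Chrm2 to 0.87 and 1.03 and their ratios between the control groups to 0.64 and 1.22, and left 1 receptor lower at E14.5, Chrm2 no longer being called. Rescaling without erythroid genes gave 2 lower at E11.5. A 1.2-fold threshold gave 2 lower and 6 higher at E11.5, and 4 lower and 1 higher at E14.5; a 2-fold threshold gave 0 lower at E14.5 and 5 higher between the control groups, and centring on the median of all genes also gave 5 there. An FPKM of at least 1 in both groups left 2 higher at E11.5; an FPKM of at least 5 left 2 higher at E11.5 and 1 lower at E14.5. The Chrna5 log2 ratio stayed between -1.26 and -0.92 at E11.5 and between -0.80 and -0.75 at E14.5. One ratio near 0 changed sign, that of Chrna3 at E14.5. No paired analysis was possible because the tables hold 1 pooled value per genotype, and for the same reason no library could be left out. Depth could not be assessed.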
